A study of Mus musculus with 12 samples.

Results

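B140P and B117P are a pair of mouse acute myeloid leukaemia cell lines, and the comparison described here is B140P against B117P, before resistance to cytarabine was raised in either. Cytarabine (Ara-C) is a cytidine analogue that stops DNA synthesis after the cell has phosphorylated it. The comparison was chosen by line name and not by any measured value, and it uses 6 of the 12 arrays of the study, 3 of each line. Both lines go back to BXH-2 mice and are labelled Ara-C-sensitive. The other 6 arrays belong to B117H and B140H, the highly Ara-C-resistant lines derived from B117P and B140P, and they give a further measurement of the difference between the lineages. They also entered the same fit, so they share in the estimate of the spread and in the choice of each gene's probe set. No genotype, age, sex or passage number is given for any line. One protocol text stands with all 12 samples, passage in ASM medium without Ara-C and exposure to rising Ara-C concentrations, so the text does not separate the parental from the resistant cells. Each lineage is a single cell line, so a difference between B140P and B117P is a difference between these lines and not between types of leukaemia. The arrays of a line carry the letters A, B and C, and nothing says that they came from separate cultures. The p-values therefore measure only the spread between these samples, which may be technical.

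Mice of the inbred BXH-2 strain carry a replicating retrovirus that infects blood-forming cells. The myeloid leukaemias that follow arise where proviruses land near genes that control growth or maturation. Myeloid maturation runs from stem and progenitor cells that carry Kit and CD34 through promyelocytes, which fill primary granules with myeloperoxidase and neutrophil elastase, to neutrophils with late granules or to monocytes. Early lymphoid progenitors branch off with the receptors Flt3 and Il7r, the recombinases Rag1 and Rag2 and the B cell factor Ebf1, and leukaemia cells often halt at one such step or mix the programmes of several.

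Levels are probe-set intensities on the linear RMA scale, and differences are log2(intensity + 1) of B140P minus that of B117P, so a negative value is a lower level in B140P. A gene is represented by its brightest probe set, and levels are compared within a probe set only. A gene was called with a limma adjusted p (Benjamini-Hochberg) under 0.05. The 12 array medians lay between 118 and 131 intensity units, and the values ran from 7.65 to 36675. Across probe sets the arrays of one parental line correlated at 0.991 to 0.997, and those of different parental lines at 0.960 to 0.967. The first principal component of the 12 arrays held 62.1% of the variance and put all B117P and B117H arrays on one side and all B140P and B140H arrays on the other. The SE of a difference was 0.12 for the median probe set of all those tested, which makes its 95% interval a factor of 1.20 to either side.

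Both parental lines had the common leukocyte and myeloid genes. Ptprc, the leukocyte surface phosphatase CD45, measured 10432, 12084 and 12339 in arrays A, B and C of B117P and 10301, 9859 and 10806 in those of B140P. The difference of -0.17 ± 0.11 (SE, n = 3 arrays per line) was not called (limma adjusted p = 0.424). Spi1, which encodes the myeloid master factor PU.1, measured 3192, 2650 and 2977 in B117P and 2643, 2382 and 2610 in B140P, and its difference of -0.21 was not called either (adjusted p = 0.276). The remaining myeloid markers, Mpo, Elane, Csf1r, Kit and Cd34, were high in B117P and lower in B140P. In B140P, Cd34 and the brightest probe set of Kit lay under the lower quartile of every array, while Csf1r measured at least 771 and Mpo at least 648 intensity units. Elane measured 121, 116.9 and 152 in B140P, near the array medians. Some of these markers were thus well above the array medians in B140P, which was not so for Cd34, Kit or Elane. Cd34 and Kit are also genes of stem and progenitor cells, so the myeloid label does not rest on them. Other granule and monocyte genes are given below.

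In all, 4333 of 18193 genes (23.8%) were called, 2178 higher (12%) and 2155 lower (11.8%) in B140P. At 2-fold or more there were 487 higher and 727 lower genes, and at 16-fold or more 37 and 60. The 3 arrays of one line all lay above the 3 of the other for 38.6% of all genes tested. The median difference over all genes was 0.0025. The counts of called list members below stand against these shares of 12% higher and 11.8% lower over all genes. The lists overlap: of their 982 distinct measured genes 95 belong to more than 1 list, so the counts of different lists are not separate evidence.

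The difference between B140H and B117H rests on the levels of other arrays, of lines derived from the same parents, although both differences share the spread estimated from all 12 arrays. Between B140H and B117H 4911 genes (27%) were called, 2426 (13.3%) higher and 2485 (13.7%) lower in B140H. Of the 2178 genes higher in B140P than in B117P, 1178 (54.1%) were called higher in B140H than in B117H as well, 97 were called the opposite way and 903 were not called. Of the 2155 lower ones, 1462 (67.8%) were called lower again, 71 the opposite way and 622 not. For differences of at least 2-fold these shares were 78.4% of the higher and 86.7% of the lower genes. The test of the difference between the 2 pairs, an interaction contrast in the same limma fit, called 1896 genes (10.4%).

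Among stem and progenitor genes Cd34 and Kit were far lower and Flt3 was higher in B140P. Of 22 measured members of the list 4 were higher and 7 lower in B140P, with a median of -0.03. Cd34, a surface sialomucin of stem and progenitor cells, measured 8469, 5360 and 6651 in B117P and 39.3, 49.4 and 33.1 in B140P. It was the gene with the largest fall of all, -7.35 ± 0.21 or 163-fold (adjusted p = 5.12e-11). Kit, the receptor for stem cell factor, measured 1052, 1106 and 1151 in B117P and 44.1, 25.9 and 35.5 in B140P, a difference of -4.96 ± 0.23 (adjusted p = 5.81e-09). A dimmer probe set of Kit differed by -1.99 (adjusted p = 1.54e-05). The B140P values of Cd34 and of the brighter Kit probe set were under the lower quartile of probe sets on every array, where RMA compresses differences, so their folds are not exact. Erg, an ETS factor of stem cells and megakaryocytes that is also a target of leukaemia viruses, differed by -5.22 ± 0.16 (adjusted p = 1.2e-10), with no overlap between its B117P arrays (2082 to 2302) and its B140P arrays (48.3 to 67), and by -0.93 in a dimmer probe set (adjusted p = 8.59e-05).

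Flt3, the cytokine receptor of early lymphoid and myeloid progenitors, went the other way. It measured 1616, 1875 and 2066 in B117P and 8847, 9158 and 10085 in B140P, a rise of 2.34 ± 0.15 or 5.07-fold (adjusted p = 1.46e-07), and the groups did not overlap. Meis1, the homeodomain partner of HOXA proteins, was 0.98 higher in B140P by its brightest probe set (adjusted p = 0.00184), 4.92 higher by the next (adjusted p = 4.14e-12) and not called by the third (-0.06, adjusted p = 0.904). Sox4 and Mecom, factors that retroviruses often activate in leukaemia, differed by -0.11 and -0.29 and were not called (adjusted p = 0.791 and 0.128).

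By their brightest probe sets, receptors for GM-CSF, G-CSF and M-CSF were called lower in B140P, while Flt3 was higher. Of 44 measured cytokine and growth factor receptors 5 were higher and 17 lower, with a median of -0.18. Csf2ra, the ligand-binding chain of the GM-CSF receptor, measured 2880, 2939 and 2977 in B117P and 25.1, 34.2 and 31.2 in B140P, a difference of -6.57 ± 0.13 (adjusted p = 4.14e-12), and a dimmer probe set differed by -0.56 (adjusted p = 0.00248). Its signalling partner Csf2rb, which the IL-3 and IL-5 receptors share, was only 1.54-fold lower, at -0.62 ± 0.17 (adjusted p = 0.0172). This call ended without B117P array B or C or B140P array B (adjusted p = 0.0759, 0.0602 and 0.0879). A dimmer probe set of Csf2rb was not called (-0.39, adjusted p = 0.32). The receptor for G-CSF, Csf3r, differed by -0.70 (adjusted p = 0.000587), that for M-CSF, Csf1r, by -1.22 (adjusted p = 0.0186). Csf1r was uneven between arrays of B140P, at 2534 in A against 771 in B and 1418 in C, while B117P held 2723, 3333 and 3851. The groups did not overlap, but the call ended without B140P array B (-0.79, adjusted p = 0.0644) or C (0.0513) and without B117P array B (0.0578) or C (0.0781). It also ended when only the 6 parental arrays were fitted (adjusted p = 0.0545). Dimmer probe sets of Csf1r differed by -1.11 (adjusted p = 0.00969) and -0.72 (adjusted p = 0.0542), the latter not called.

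The hepatocyte growth factor receptor Met differed by -5.01 ± 0.13 (adjusted p = 3.57e-11) and the IL-18 receptor chain Il18r1 by -3.79 ± 0.14 (adjusted p = 4.66e-10). Met had a further, dimmer probe set with -0.31 (adjusted p = 0.0599). The receptor that rose most was Il7r, described with the lymphoid genes below.

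**Figure D1:**
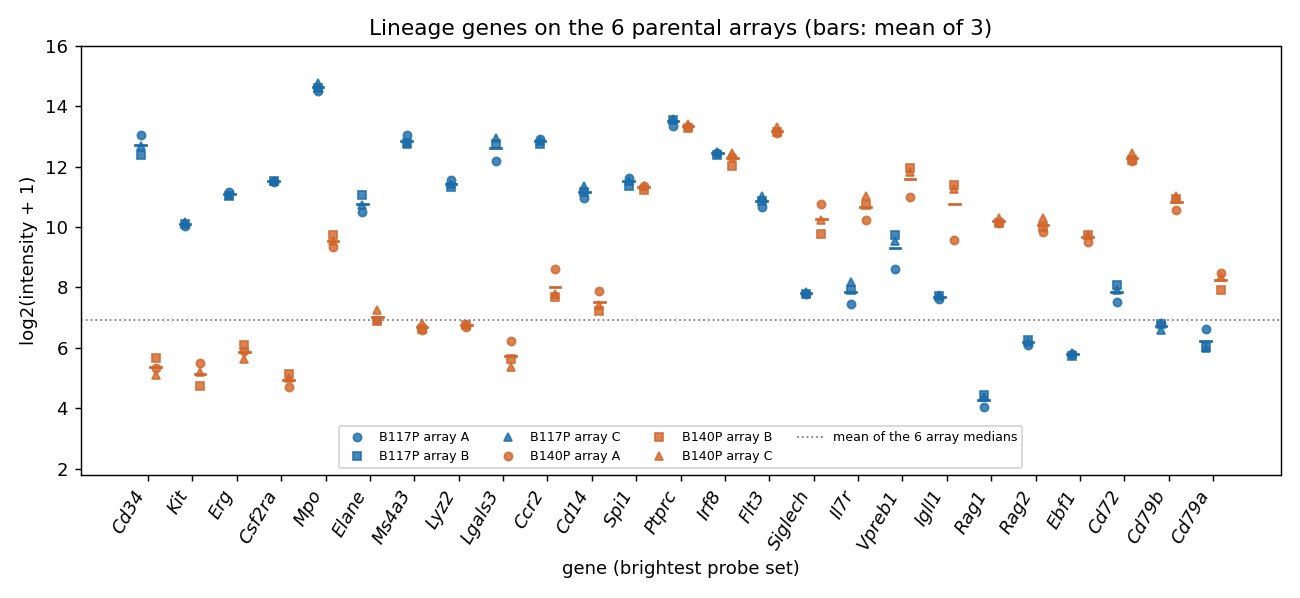
Probe-set level of 25 lineage genes on the 6 parental arrays, as log2(intensity + 1) on the vertical axis, with B117P in blue, B140P in orange, a marker shape for each array letter and a bar for the mean of 3. Cd34, Kit, Mpo and Ccr2 are far above the B140P arrays in B117P, Ptprc, Spi1 and Irf8 were not called, and Rag1, Ebf1, Cd72 and Cd79b are high in B140P; the dotted line is the mean of the array medians, and values are comparable within a gene only.

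The primary granule list, which also counts the membrane protein gene Ms4a3, had the largest share of lower genes among the 34 lists. Of 17 measured members 12 were lower and 1 higher in B140P, with a median of -0.99, beside 11.8% lower and a median of 0.0025 over all genes. The list is not confined to granule proteins, so its count, median and rank do not stand for the proteases of primary granules alone. Mpo, the myeloperoxidase of these granules, measured 23066, 24996 and 27884 in B117P and 648, 844 and 751 in B140P. This was a difference of -5.08 ± 0.29 or 33.9-fold (adjusted p = 3.19e-08). Elane, neutrophil elastase, measured 1440, 2158 and 1694 in B117P against 121, 116.9 and 152 in B140P, a difference of -3.74 ± 0.25 (adjusted p = 2.05e-07).

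The serine proteases of the same granules did not fall alike. Prtn3, proteinase 3, was 3.22-fold lower in B140P, with 13441, 14110 and 14339 in B117P against 4703, 4232 and 4090 (difference -1.69, adjusted p = 5.82e-07). Ctsg, cathepsin G, was 1.64-fold lower, with 15107, 19759 and 19787 against 10500, 11543 and 11034 (difference -0.71, adjusted p = 0.000303). The groups did not overlap for either gene. Ms4a3, a membrane protein of granulocyte and monocyte progenitors, fell by 6.17 on the log2 scale (adjusted p = 2.49e-11), from 6822 to 8384 down to 95.6 to 112. The cytolytic granule protein Nkg7 differed by -4.87 (adjusted p = 7.53e-08), and the glutathione transferases Mgst2 and Gstm1 by -4.14 and -3.44 (adjusted p = 1.31e-10 and 1.31e-08).

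Of 27 measured genes of later neutrophil granules, which appear after the promyelocyte, none was called higher and 7 were called lower in B140P (limma), with a median of -0.20. The defining members Ltf, Camp and Ngp, which encode lactoferrin, cathelicidin and neutrophilic granule protein, measured 166 to 200, 103 to 108 and 117.4 to 182 in B117P and 142 to 169, 89.5 to 103 and 116 to 126 in B140P. None of these differences was called (adjusted p = 0.563, 0.762 and 0.718). Mmp8, neutrophil collagenase, was lower, at 1172, 1489 and 1682 in B117P against 309, 299 and 224 (difference -2.38, adjusted p = 2.56e-05). Hp, the haemoglobin scavenger haptoglobin, differed by -2.39 (adjusted p = 1.63e-07), and Cxcr2, a neutrophil chemokine receptor, by -1.99 (adjusted p = 7.9e-06).

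The size of the difference in the calprotectin genes rested on 1 array. S100a8 measured 380 in B117P array A but 69.9 and 62.9 in B and C, against 32 to 35.2 in B140P, and its difference of -1.82 ± 0.48 was called (adjusted p = 0.0175). Without B117P array A it was -0.98 and still called (adjusted p = 0.000265), and without B140P array B or C the call ended (adjusted p = 0.0541 and 0.0525). S100a9 measured 531 in B117P array A and 86.1 and 65.6 in B and C, against 44.7 to 49.2, and its difference of -1.59 ± 0.55 was not called (adjusted p = 0.0663), but was without array A, B or C of B117P (-0.66, -1.97 and -2.16, adjusted p = 0.0297, 0.0462 and 0.0148). Lcn2, lipocalin 2, was likewise highest in B117P array A (44.5 against 19.2 and 20.8) and was not called (adjusted p = 0.0503), with a call without B117P array B or C (adjusted p = 0.0201 and 0.0382). With the array letter as a replicate block, both S100a9 (adjusted p = 0.0458) and Lcn2 (adjusted p = 0.0229) were called.

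Monocyte and macrophage genes were lower in B140P in 20 of 44 measured cases and higher in 4, with a median of -0.17, beside 11.8% lower and 12% higher over all genes. Ccr2, the receptor that leads monocytes out of the marrow, measured 7769, 6917 and 7315 in B117P and 392, 204 and 217 in B140P, a difference of -4.82 ± 0.33 (adjusted p = 2.12e-07). Lgals3, galectin 3, measured 4670, 6949 and 7849 against 74.5, 48 and 39.8, a 119-fold difference (-6.90 ± 0.29, adjusted p = 1.94e-09). The lysozyme genes Lyz1 and Lyz2 differed by -6.42 and -4.69 (adjusted p = 4.11e-12 and 7.96e-11), though near-identical copies can share probe signal.

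The endotoxin co-receptor Cd14 measured 1983, 2312 and 2607 in B117P and 236, 149 and 171 in B140P, a difference of -3.64 ± 0.24 (adjusted p = 1.52e-07). The beta-glucan receptor Clec7a, the immunoglobulin family member Igsf6 and cathepsin L (Ctsl) differed by -3.29, -4.71 and -3.26 (adjusted p = 6.08e-07, 3.82e-10 and 2.49e-09). Not all monocyte genes followed. Slc11a1, the phagosomal divalent metal transporter, was 30.03-fold higher in B140P, at 4445, 4345 and 4776 against 187, 131 and 137 (difference 4.91 ± 0.16, adjusted p = 2e-10). Cd68 and the monocyte factor Irf8 measured 1242 to 1597 and 5319 to 5785 in B117P and 1206 to 1302 and 4201 to 5599 in B140P, and neither was called (adjusted p = 0.569 and 0.483). The macrophage marker Adgre1 (F4/80) differed by -0.92 (adjusted p = 0.0172), and the call was lost without B117P array B or C or B140P array C (adjusted p = 0.0574, 0.0782 and 0.0783). Without B140P array B the higher genes of the list came to 2.

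Receptors that sense antibodies and microbes were lower in 12 of 40 measured cases and higher in 3 (median -0.13). Among them, the Toll-like receptors Tlr2, Tlr4 and Tlr7 differed by -1.14, -1.28 and -2.01 (adjusted p = 5.9e-07, 1.43e-05 and 1.45e-06), and the Fc receptors Fcgr2b and Fcgr3 by -1.77 and -1.52 (adjusted p = 3.57e-05 and 2.9e-06). The arrays of the lines did not overlap for any of these 5 genes, and without B117P array A the list's higher genes came to 1.

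Genes of early B lymphopoiesis were higher in B140P. Of 29 measured members 16 were higher and 2 lower, with a median of 0.56, beside 12% higher over all genes. Rag1 and Rag2, whose proteins cut DNA at antigen receptor genes, were among them. Rag1 measured 15.5, 20.5 and 19.9 in B117P and 1119, 1126 and 1257 in B140P, a difference of 5.90 ± 0.28 (adjusted p = 5.95e-09), with the B117P side under the lower quartile of every array. Rag2 measured 67.4, 75.1 and 72.2 against 919, 1025 and 1272, a difference of 3.87 ± 0.18 (adjusted p = 6.43e-09).

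Ebf1, the factor that commits progenitors to the B lineage, measured 55.2, 52.4 and 55.3 in B117P and 731, 844 and 853 in B140P, a difference of 3.87 ± 0.13 or 14.6-fold (adjusted p = 2.5e-10). Its 4 other probe sets were also higher, by 0.99 to 6.37. Cd79b, a signalling chain of the B cell receptor, measured 112, 109 and 95.7 against 1498, 1972 and 2095 (4.11 ± 0.20, adjusted p = 7.49e-09), while its partner Cd79a reached only 243 to 355 from 62.5 to 97.4 (2.04, adjusted p = 2.66e-05). Cd72, an inhibitory co-receptor of B cells, was 22.02-fold higher (4.46, adjusted p = 6.05e-10). Il7r, the interleukin-7 receptor that early lymphocytes need, measured 173, 239 and 286 in B117P and 1197, 1716 and 2090 in B140P, a difference of 2.83 ± 0.30 (adjusted p = 1.41e-05).

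Surrogate light chain genes, which stand in for the light chain in pre-B cells, were higher in B140P but uneven. Igll1 measured 194, 211 and 215 in B117P and 758, 2709 and 2470 in B140P, a difference of 3.05 ± 0.36 (adjusted p = 3.61e-05). A dimmer probe set of Igll1 showed 0.20 (adjusted p = 0.653). Vpreb1 measured 391, 862 and 745 in B117P and 2044, 3930 and 3630 in B140P (2.28 ± 0.28, adjusted p = 5.4e-05), and the A arrays were lowest in both lines. Pax5, which follows Ebf1 and fixes B cell identity, measured 161 to 186 in B117P and 170 to 175 in B140P, and the difference of 0.03 was not called (adjusted p = 0.973).

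Most markers of other lineages were not called, which is no statement that they were absent. The T and NK list had 3 lower and no higher genes of 28 measured (limma, adjusted p under 0.05), among the lower ones Nkg7, and its defining genes Cd3e and Thy1 differed by -0.01 and 0.01 (adjusted p = 0.979 and 0.994). Of 28 erythroid genes 1 was higher and 5 lower, of 24 megakaryocyte genes 3 and 4, of 28 mast cell, basophil and eosinophil genes 0 and 5 and of 22 stromal, endothelial and epithelial genes 1 and 1. The defining genes Gata1, Klf1 and Hba-a1 of the red lineage, Pf4 of platelets, Cpa3 and Mcpt8 of mast cells and basophils, Col1a1 of stroma and Epcam of epithelium were not called (adjusted p from 0.0927, of Mcpt8, to 0.97, of Klf1). Mcpt8 was well above the array medians in both lines, at 1208 to 1525 in B117P and 809 to 1060 in B140P. Gata1 was called without B140P array C (0.44, adjusted p = 0.0131) and Mcpt8 without B117H array C (adjusted p = 0.0467). Of 22 measured dendritic cell genes only 2 were higher and 1 lower, with a median of -0.0004, beside 12% and 11.8% over all genes. Siglech and Itgax were the extremes of that list. The plasmacytoid dendritic receptor Siglech was 5.47-fold higher in B140P, at 1723, 873 and 1211 against 220, 219 and 229 (2.45, adjusted p = 1.46e-06). The integrin Itgax (CD11c) differed by -2.79 (adjusted p = 5.22e-09), and Zbtb46, the factor of conventional dendritic cells, was not called by its brightest probe set (-0.11, adjusted p = 0.786) and differed by -0.55 in the next (adjusted p = 0.00558). Whether other cells were in either culture was not tested; these bulk arrays cannot tell fewer cells of a type from less RNA per cell.

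**Figure D2:**
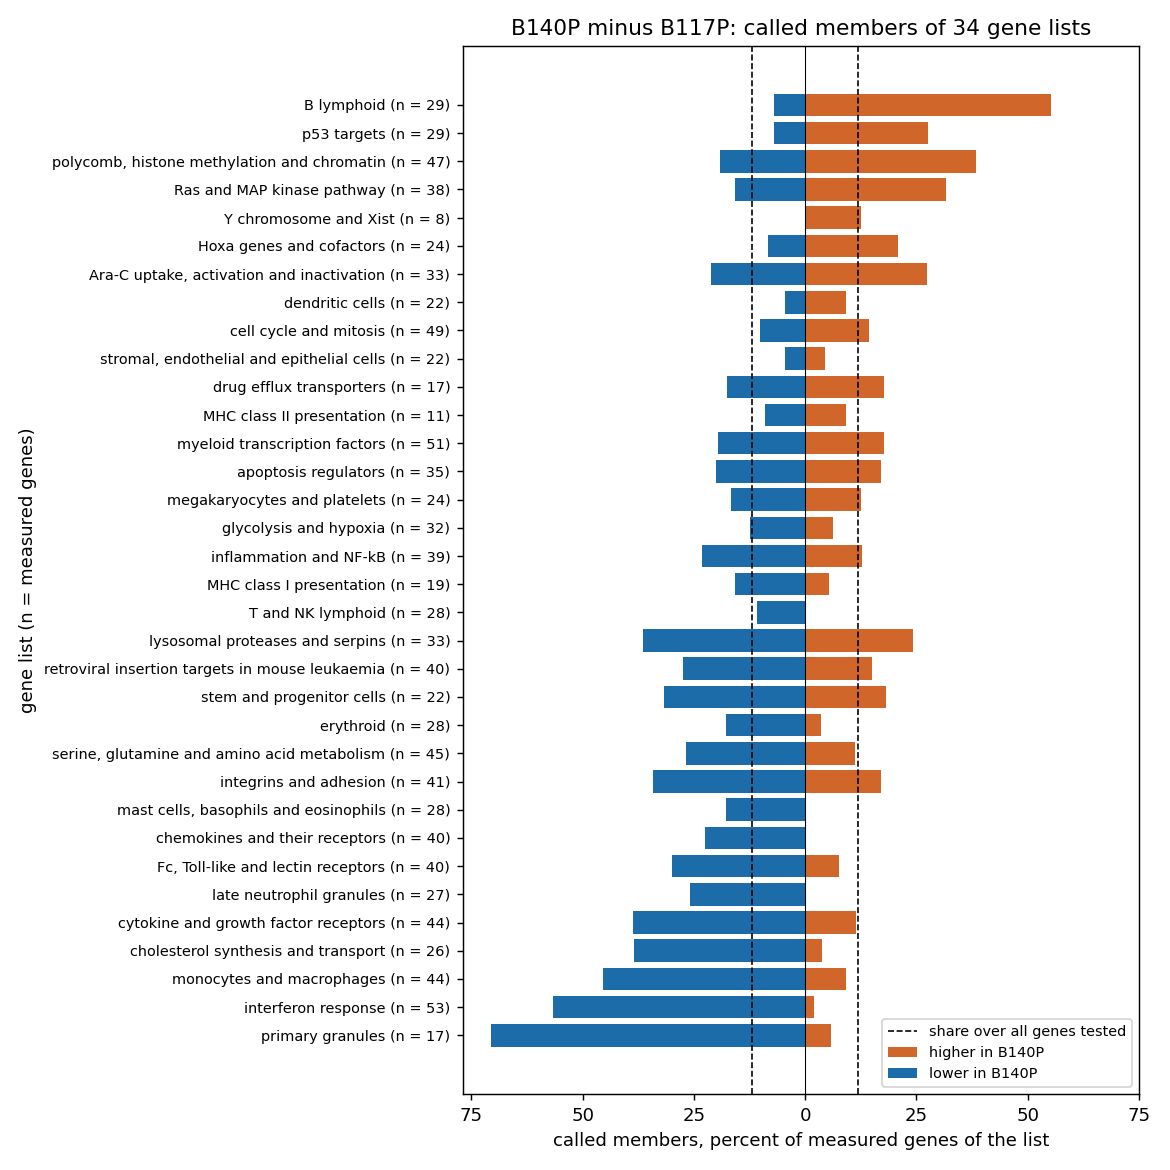
Share of the measured genes of each of 34 lists (horizontal axis, percent) called higher in B140P (orange, to the right) or lower in B140P (blue, to the left), with the number of measured genes beside each list and dashed lines at the shares over all genes tested, 12% and 11.8%. The B lymphoid list reaches furthest right with 16 of 29 genes, and primary granules reach furthest left with 12 of 17.

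Transcription factors of myeloid maturation moved in both directions, with 9 higher and 10 lower of 51 (median 0.02), the higher ones being 5 without B117P array A. Gfi1, a repressor needed for neutrophils, measured 330, 566 and 400 in B117P and 78.2, 63.8 and 61.7 in B140P (-2.62 ± 0.20, adjusted p = 5.82e-07). Among the C/EBP factors, Cebpa and Cebpd differed by -1.27 and -1.73 (adjusted p = 1.02e-06 and 2.94e-07), and Cebpb, linked to emergency granulopoiesis and macrophages, was higher, at 2713, 2473 and 3147 against 720, 846 and 771 (1.83 ± 0.19, adjusted p = 1.17e-05). A second probe set of Cebpd was not called (-0.38, adjusted p = 0.131). Nfil3, a basic leucine zipper repressor, was 5.42-fold lower (adjusted p = 8.21e-06). Nfe2, a factor of megakaryocytes and red cells, was 6.18-fold lower (adjusted p = 9.83e-07).

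Genes that retroviruses often hit in mouse leukaemia were higher in 6 and lower in 11 of 40 measured cases (median -0.11). Hmga2, a chromatin architectural protein of fetal and stem cells, was the extreme on the high side, at 2770, 2644 and 2986 in B140P against 107, 143 and 112 (4.54 ± 0.12, adjusted p = 3.87e-11). Hoxa9, a self-renewal factor, was lower in B140P, with 655 in array A and 365 and 325 in B and C against 1111 to 1354 (-1.50 ± 0.30, adjusted p = 0.00257). Its neighbour Hoxa7 was higher at 1573, 1872 and 1766 against 904, 709 and 868 (1.07, adjusted p = 6.62e-05), the cofactor Pbx3 rose by 1.22 (adjusted p = 0.00124) and Hoxa10 was not called (0.02, adjusted p = 0.954). Evi2a, which lies inside an intron of Nf1, differed by -3.28 ± 0.15 (adjusted p = 4.88e-09), from 5586 to 7527 down to 607 to 708, and by only -1.04 in its other probe set (adjusted p = 9.62e-05). Nf1 itself, the Ras GTPase activator lost in many BXH-2 leukaemias, differed by -0.61 (adjusted p = 0.0265), while its other probe sets differed by -2.37 (adjusted p = 7.04e-08) and by -0.01 (adjusted p = 0.971), so they disagreed in size. The call of Nf1 ended without B117P array A or B or B140P array B or C (adjusted p = 0.113, 0.0969, 0.0827 and 0.104). The haematopoietic factors Myb and Hhex differed by -0.39 (adjusted p = 0.0237) and -0.16 (adjusted p = 0.337), and the call of Myb ended without B117P array C or B140P array A (adjusted p = 0.109 and 0.118).

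Interferon-stimulated genes were lower in B140P. These genes respond to interferons through factors that read a repeated GAAA letter pattern. Of 53 measured members 30 were lower and 1 higher, with a median of -0.65, beside 11.8% lower over all genes. Promoter sequences of RefSeq on GRCm38.p6 were searched for the letters GAAANNGAA on both strands in the 250 bases upstream of each annotated start. The letters stood in 10 of the 21 lower members that had such a window and in 9 of 18 members that were not lower, against 8.18% of all genes and 7.13% of all 32851 windows. The share was thus alike in members that were lower and in those that were not, and a match is a description of letters and not of binding. The pattern was chosen after the values were seen. Stretches of the promoters of 3 lower genes are printed because their expression values follow, with the matches in capitals, written 5′ to 3′ on the gene's strand. The guanylate-binding GTPase Gbp3 is at chr3:142559955-142560043 on the plus strand, the antiviral Ifit1 at chr19:34640735-34640858 on the plus strand and the ubiquitin ligase Trim30a at chr7:104465194-104465273 on the minus strand.
Gbp3: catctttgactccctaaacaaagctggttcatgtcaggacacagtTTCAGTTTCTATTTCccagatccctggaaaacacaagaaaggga
Ifit1: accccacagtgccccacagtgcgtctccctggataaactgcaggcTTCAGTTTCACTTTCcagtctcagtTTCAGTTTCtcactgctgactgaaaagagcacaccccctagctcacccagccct
Trim30a: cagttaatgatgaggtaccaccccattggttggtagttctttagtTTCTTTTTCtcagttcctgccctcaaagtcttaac

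Gbp3 measured 2518, 4125 and 4195 in B117P and 36.9, 41.5 and 36.5 in B140P, a difference of -6.49 ± 0.23 or 89.7-fold (adjusted p = 3.84e-10). Trim30a measured 684, 653 and 614 against 94.4, 91.8 and 117.4 (-2.68 ± 0.14, adjusted p = 1.63e-08). Ifit1 measured 89.1, 109 and 101 against 59.7, 54.2 and 57.9, a smaller difference of -0.79 ± 0.10 (adjusted p = 7.32e-05). Of these 3, the promoter with the most matches, that of Ifit1, belonged to the gene with the smallest difference. Ifit1 lay under the array medians in both lines and just above the lower quartiles in B140P. RMA compresses differences at such levels, so no link between matches and size of difference can be read from these genes.

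Parp12, an antiviral ADP-ribosyltransferase, differed by -4.16 (adjusted p = 7.34e-07), Usp18, which removes ISG15 and damps the pathway, by -3.09 (adjusted p = 1e-07), Rtp4 by -2.95 (adjusted p = 4.7e-06) and Xaf1 by -2.53 (adjusted p = 1.24e-08). The master regulator Irf7 measured 192 to 239 in B117P and 107 to 119 in B140P (-0.97, adjusted p = 0.000113). Antigen presentation by MHC class I did not follow: 1 gene was higher and 3 were lower of 19. H2-K1, H2-D1 and B2m, the heavy chains and the light chain of class I, differed by -0.04, 0.02 and -0.04 and were not called (adjusted p = 0.875, 0.94 and 0.882). The class II list had 1 gene in each direction of 11, and its invariant chain Cd74 was not called (-0.40, adjusted p = 0.144); with the replicate block Cd74 was (adjusted p = 0.0317).

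Inflammatory genes were higher in 5 and lower in 9 of 39 measured cases. The cytokine Il6 measured 382, 427 and 296 in B117P and 30.7, 26.7 and 29.8 in B140P (-3.60 ± 0.14, adjusted p = 1.07e-09). The prostaglandin enzymes Ptgs2, which makes the precursor, and Hpgd, which breaks prostaglandins down, differed by -4.90 and -5.36 (adjusted p = 3.03e-08 and 2.32e-09). Alox5ap, needed to make leukotrienes, was 1.94-fold higher in B140P (adjusted p = 1.5e-05). Il1b was at 52.3 to 74.9 in B117P and 53 to 64.3 in B140P and was not called (adjusted p = 0.718).

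Beyond these lists, the 15 genes with the largest falls in B140P also held Ptgr1, App, Pxylp1, Ell2, Nrp1, Rai14, Anxa3, Col19a1 and Mbnl3. Ptgr1, a prostaglandin reductase, measured 4403, 5954 and 4563 in B117P and 35.1, 26.6 and 32.5 in B140P (-7.26 ± 0.20, adjusted p = 4.36e-11). App, the amyloid precursor protein, measured 7093, 6087 and 6913 against 45.6, 43.8 and 71.4 (-6.97 ± 0.19, adjusted p = 4.36e-11). Of 4 App probe sets the 2 bright ones fell, and the 2 dim ones were not called (adjusted p = 0.847 and 0.764). The elongation factor Ell2 behaved alike, with -6.09 in its bright and -0.21 (adjusted p = 0.535) in its dim probe set. The neuropilin Nrp1, a co-receptor for semaphorins and VEGF, differed by -6.05, and the calcium-binding annexin Anxa3 by -5.80 (adjusted p = 7.75e-11 and 5.99e-09). The others, Pxylp1, Rai14, Col19a1 and Mbnl3, ranged from -6.61 to -5.77. Ptgr1, Pxylp1, Ell2, Rai14 and Col19a1 lay under the lower quartile of every B140P array, so their folds are not exact. The same limit holds for Csf2ra, Lyz1, Gbp3, Il6, Ptgs2, Hpgd, Met and Igsf6 above.

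The 15 genes with the largest rises were led by Tspan12, a tetraspanin of Wnt-type signalling in vessels, with 8.69, 11.6 and 13.1 in B117P and 1120, 1031 and 934 in B140P (6.42 ± 0.19, adjusted p = 9.26e-11). The B117P side was close to the lowest values of the arrays. Pou4f1, a neuronal POU homeodomain factor, measured 41.3, 68 and 65.6 against 4083, 4708 and 4520 (6.26 ± 0.20, adjusted p = 1.51e-10). Popdc3, Lipo3, Sgpp1, Zmpste24 and Glul followed, with 5.81, 5.78, 5.66, 5.59 and 5.59, and their B140P arrays lay between 713 and 3350. Zmpste24 is the protease that matures lamin A, Sgpp1 a sphingosine phosphate phosphatase and Glul glutamine synthetase. The mitochondrial enzymes Hadh, Ak3 and Bckdhb, of fatty acid oxidation, nucleotide exchange and branched-chain amino acid breakdown, were 44.3, 41.7 and 29.1-fold higher (adjusted p = 3.57e-11, 2.11e-11 and 9.75e-10). The p53 target Zmat3, the neurofilament gene Nefh and the muscle gene Klhl41 differed by 5.35, 4.98 and 4.84. Lipo3, Sgpp1, Glul, Bckdhb and Klhl41 lay under the lower quartile of every B117P array, so their folds are not exact.

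**Figure D3:**
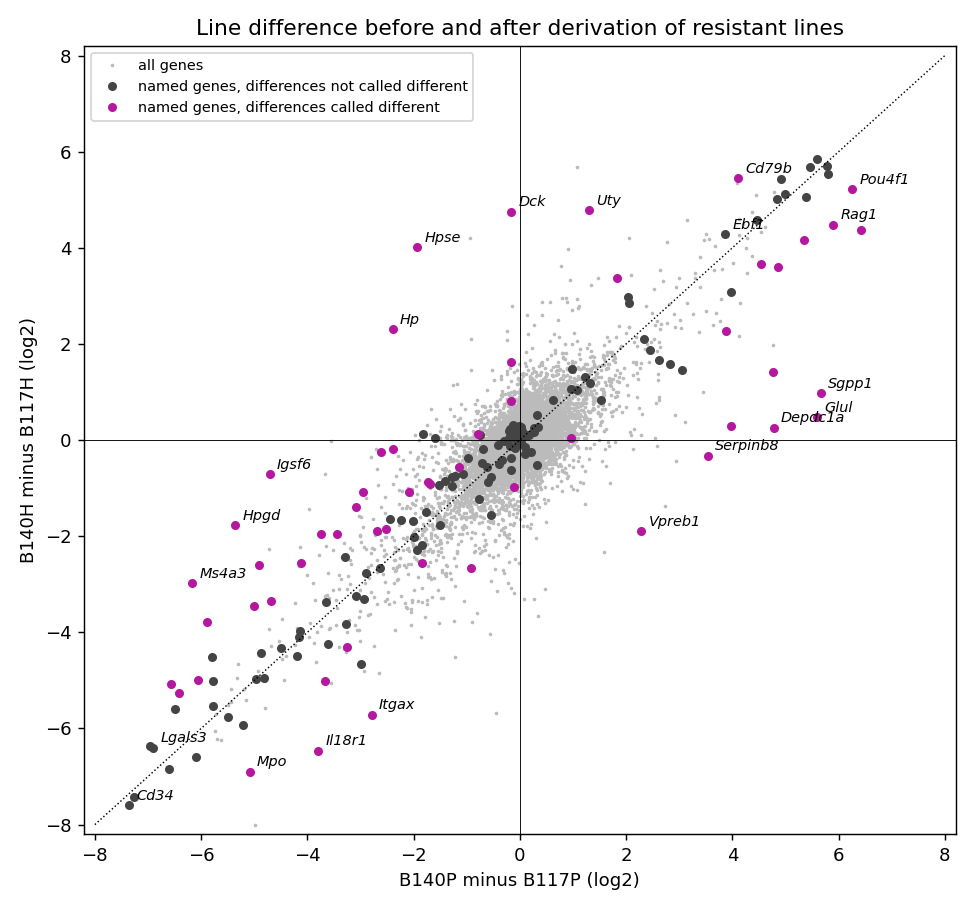
Line difference of the resistant pair (B140H minus B117H, vertical axis, log2) against that of the parental pair (B140P minus B117P, horizontal axis, log2) for all genes (grey) and the genes named here (dark where the 2 differences were not called different, magenta where they were). The dotted line marks equal differences; Cd34 and Lgals3 lie on it, Mpo is lower among the resistant lines, and Glul, Depdc1a, Hp, Hpse, Vpreb1 and Dck lie far from it.

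Some of the parental differences were smaller or of opposite sign in the resistant lines, by the interaction test. Glul measured 19.2, 13.4 and 16.7 in B117P and 713, 944 and 849 in B140P, but 644, 762 and 711 in B117H and 1071, 774 and 1129 in B140H (interaction adjusted p = 8.06e-08). Depdc1a, a mitotic gene, measured 14.6, 15.7 and 13.2 in B117P against 404, 377 and 496 in B140P, and 436, 381 and 573 in B117H against 538, 438 and 696 in B140H (interaction adjusted p = 5.86e-07). In both genes B117P was the only line with low values. Hp was higher in B117P than in B140P but measured 402, 362 and 405 in B117H and 2256, 2063 and 1550 in B140H (interaction adjusted p = 1.35e-07). Hpse, the endoglycosidase heparanase, turned in the same way. It measured 795, 1100 and 1137 in B117P and 249, 250 and 283 in B140P, and 78.4, 93.8 and 87.8 in B117H and 1749, 1131 and 1429 in B140H (interaction adjusted p = 3.28e-08). Vpreb1 turned too, at 3550, 4836 and 4768 in B117H and 1189, 1114 and 1208 in B140H (interaction adjusted p = 4.03e-05). By contrast Cd34 differed by -7.60 between the resistant lines, and the 2 differences were not called different (interaction adjusted p = 0.76).

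Genes that handle Ara-C were compared because the parental lines are the sensitive ones. Of 33 measured genes 9 were higher and 7 lower in B140P, with a median of 0.07. Dck, the kinase that adds the first phosphate to Ara-C, measured 2287, 3158 and 2935 in B117P and 2337, 2481 and 2576 in B140P. Its difference of -0.17 ± 0.12 was not called (adjusted p = 0.477), while the resistant pair differed by 4.75 (adjusted p = 2.07e-11). The nucleoside transporter Slc29a1 and the deaminase Cda, which inactivates Ara-C, were not called (0.32 and 0.04, adjusted p = 0.366 and 0.94). The nucleotidase Nt5c2 was 2.65-fold lower (adjusted p = 1.57e-05) and the mitochondrial UMP-CMP kinase Cmpk2, which is also an interferon-stimulated gene, 3.59-fold lower in B140P (adjusted p = 0.000129). Samhd1, which hydrolyses Ara-C triphosphate, was 0.27 higher (adjusted p = 0.0395), but its 4 other probe sets were not called. The call of Samhd1 ended in 8 of the 12 fits that left out 1 array (adjusted p from 0.0542 to 0.141), those of every B117H and B140P array and of B117P arrays A and C. Without B140P array B the higher genes of the list came to 5. Of 17 drug efflux transporters 3 were higher and 3 lower, and 5 lower without B117P array A.

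Among 29 measured targets of p53, the damage response factor, 8 were higher and 2 lower in B140P, with a median of 0.23. Cdkn1a, the p21 cell cycle inhibitor, measured 1320, 1656 and 1182 in B117P and 5286, 5805 and 6082 in B140P (2.06 ± 0.17, adjusted p = 1.17e-06). Ccng1, Bbc3 (the death protein PUMA) and Ddit4 were higher by 1.33, 1.53 and 2.63 (adjusted p = 6.79e-05, 0.000318 and 0.000283), and Zmat3, named above, belonged to the same list. Mdm2, the ligase that degrades p53, was 0.63 higher by its brightest probe set (adjusted p = 0.00555), whereas its dimmest showed -0.30 (adjusted p = 0.153). The stress gene Gadd45a was lower, at 64.2, 74.2 and 77.9 against 313, 382 and 334 (-2.23, adjusted p = 1.53e-07). Cdkn2a, the locus of p16 and p19, was 2.11-fold lower (adjusted p = 0.000197).

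Of 35 regulators of cell death 6 were higher and 7 lower, beside 12% and 11.8% over all genes, the latter 4 without B117P array B or B140P array A or C. Bcl2 measured 4975, 4739 and 4362 in B117P and 1071, 1195 and 1035 in B140P (-2.09 ± 0.12, adjusted p = 2.87e-08). Mcl1, another survival protein of the family, was 1.94-fold higher in B140P, at 7016, 6536 and 6264 against 3078, 3578 and 3558 (adjusted p = 1.16e-05). Bcl2l1 (BCL-XL) differed by -0.34 (adjusted p = 0.0325), by its brightest probe set alone of 4, and the call was lost without B117P array B or C or any B140P array (adjusted p from 0.068 to 0.12), and the brightest probe set of the death protein gene Bcl2l11 by 0.22 (adjusted p = 0.572), with 0.52 in the next (adjusted p = 0.0344). The Ras and MAP kinase list held 12 higher and 6 lower genes of 38. In it Spred2, a Ras pathway inhibitor, was lower, at 3761, 4334 and 4104 in B117P against 232, 141 and 178 (-4.49 ± 0.18, adjusted p = 1e-09; 0.01 to -2.72 in its 4 dimmer probe sets), and Phlda1 was 3.98 higher (adjusted p = 1.46e-06). The feedback genes Spry2 and Dusp6, often read as pathway output, were not called (-0.08 and 0.31, adjusted p = 0.801 and 0.452).

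Of 49 proliferation genes 7 were higher and 5 lower, shares near the 12% and 11.8% over all genes. Mki67 was 1.28-fold higher in B140P (adjusted p = 0.0201), and the call was lost without B117P array C or B140P array A or C (adjusted p = 0.0805, 0.0645 and 0.0914). In cholesterol synthesis 10 genes were lower and 1 higher of 26 (median -0.33). Lss, which closes the sterol rings, measured 968, 1418 and 993 in B117P and 166, 141 and 139 in B140P (-2.90, adjusted p = 1.31e-07), Hsd17b7 differed by -1.94, Hmgcs1 by -0.76 and Sqle by -0.54 (adjusted p = 1.97e-05, 0.000745 and 0.00232). In amino acid metabolism 12 genes were lower and 5 higher of 45, the latter 3 without B117P array A or B140P array B or C. Asns, asparagine synthetase, measured 1653, 2393 and 2281 against 102, 135 and 105 in B140P (-4.19 ± 0.22, adjusted p = 1.78e-08). The transsulfuration enzyme Cth, the branched-chain transaminase Bcat1 and the serine synthesis enzyme Psat1 differed by -3.66, -2.94 and -1.83 (adjusted p = 4.04e-07, 5.81e-08 and 1.66e-07). Phgdh, which opens serine synthesis, was not called (0.10, adjusted p = 0.712).

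Of 32 glycolysis and hypoxia genes 2 were higher and 4 lower, and 4 higher without B117P array B. Hk3, the hexokinase of myeloid cells, was 17.5-fold lower in B140P (adjusted p = 6.2e-10), and Egln3, an oxygen sensor, measured 3897, 4234 and 3693 in B117P and 1064, 342 and 337 in B140P (-2.98, adjusted p = 0.000184). Ldha was not called (0.13, adjusted p = 0.679). Lysosomal proteases and serpins were lower in 12 and higher in 8 of 33 cases, with Ctsh, the aminopeptidase cathepsin H, at 2286, 1644 and 2292 against 39, 57.3 and 39.7 (-5.49 ± 0.17, adjusted p = 1.29e-10). Legumain (Lgmn) was 8.51-fold lower (adjusted p = 1.26e-07), and the serpin Serpinb8 was 11.7-fold higher (adjusted p = 2.85e-10). In adhesion 14 genes were lower and 7 higher of 41 (9 lower without B140P array B), and among chemokines and their receptors 9 were lower and none higher of 40 by limma (5 lower without B117P array C).

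Chromatin genes were higher in 18 and lower in 9 of 47 measured cases (median 0.14), counts that came to 11 and 4 without B117P array C and to 5 lower without B140P array A or B. Sfmbt2, a polycomb-group protein, measured 41.4, 37.9 and 56.8 in B117P and 1338, 1278 and 1097 in B140P (4.76 ± 0.15, adjusted p = 1.36e-10). Epop, a subunit that joins PRC2, the complex that methylates histone H3, measured 24.9, 26.1 and 25.3 against 465, 408 and 379 (3.98 ± 0.13, adjusted p = 1.78e-10). The PRC2 enzyme Ezh2 was not called (0.10, adjusted p = 0.573). Of the 8 measured Y-linked genes and Xist, Uty was higher in B140P, at 550, 445 and 599 against 189, 228 and 222 (1.31, adjusted p = 0.000134). Eif2s3y was under the lower quartile of every parental array, and Xist measured 93.3 to 148, with neither called (adjusted p = 0.502 and 0.517).

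Called genes were unevenly spread over the chromosomes. On chromosome 1, 41 genes were higher and 255 lower in B140P of 1057, on chromosome 4, 36 and 281 of 1087, and on chromosome 16, 23 and 150 of 593. The opposite held on chromosome 9, with 255 higher and 55 lower of 1002, on chromosome 12, with 131 and 46 of 622, and on chromosome 14, with 138 and 48 of 640. Over all chromosomes 12% of genes were higher and 11.9% lower in B140P. On chromosomes 1, 4 and 16 the shares were 3.31% to 3.88% higher and 24.1% to 25.9% lower. On chromosomes 9, 12 and 14 they were 21.1% to 25.4% higher and 5.49% to 7.5% lower. Among genes with brighter probe sets the median difference was -0.22, -0.24 and -0.24 on chromosomes 1, 4 and 16 and 0.20, 0.19 and 0.14 on chromosomes 9, 12 and 14, beside 0.02 over all chromosomes. These are shifts of many genes by less than 1.2-fold, below the size of most named differences.

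The medians of single arrays separated the lines on these 6 chromosomes and on most of the others, chromosome 3 among them. Separation alone therefore does not mark these 6, which had the largest median differences in size among genes with brighter probe sets. On chromosome 4, the B117P arrays stood at 0.13, 0.12 and 0.14 from the mean of the 6 parental arrays and the B140P arrays at -0.14, -0.12 and -0.14. On chromosome 12, B140P array A stood at 0.17 and B and C at 0.04 and 0.08, so that array differed most there. Between the resistant lines the medians were -0.33, -0.28 and 0.09 on chromosomes 1, 4 and 16 and 0.11, -0.23 and 0.02 on chromosomes 9, 12 and 14, beside 0.05 over all chromosomes. Chromosomes 16 and 12 thus did not keep their sign, and chromosome 14 was no longer above the value over all chromosomes. Copy number was not measured, and its part in these shifts was not tested.

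**Figure D4:**
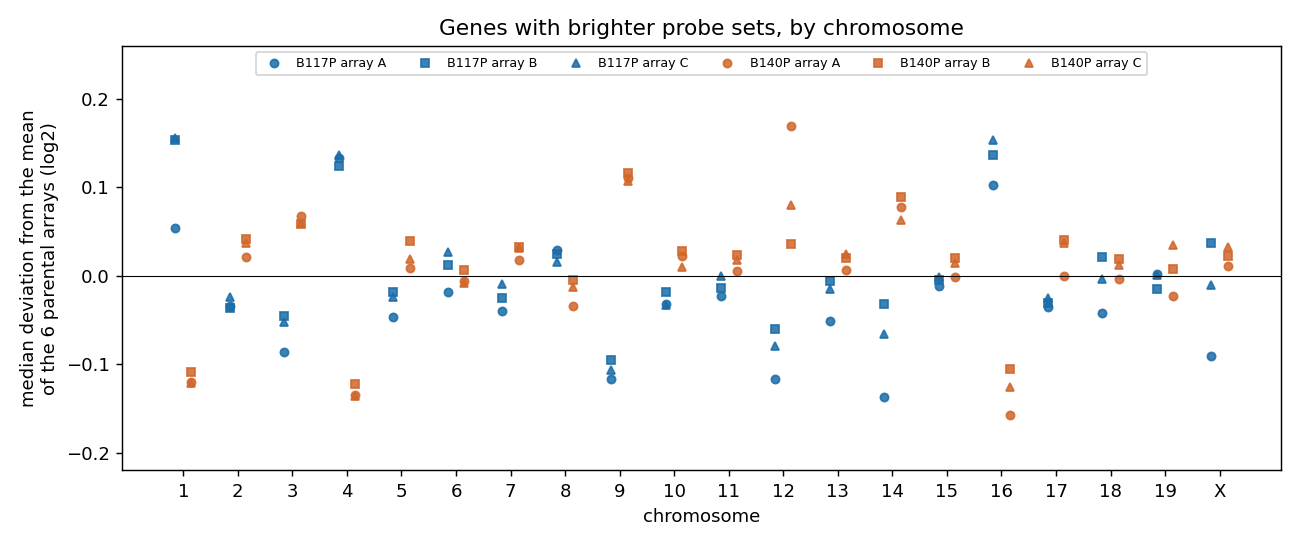
Median deviation of each parental array from the mean of the 6 parental arrays (vertical axis, log2), over genes with brighter probe sets, by chromosome (horizontal axis), B117P in blue and B140P in orange with a marker shape for each array letter. The arrays of the lines lie apart on chromosomes 1, 4 and 16, with B117P higher, and on 9, 12 and 14, with B140P higher. They also lie apart, by less, on most of the other chromosomes, such as chromosome 3, with B140P higher, where the median difference was 0.10.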

How the data were processed

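Total RNA of 12 samples was extracted with RNeasy Midi kits, amplified with MessageAmp III and labelled with biotin, per the labels' protocols. The deposited values are intensity values of probe sets, which the authors summarised with RMA, per the submitters' processing notes. The RMA version and settings and a genome build were not given in the sources used here; the linear scale was read from the values. Of 45101 probe sets 64 array controls were left out. The platform annotation gave 34945 of the 45037 tested probe sets 1 symbol, 932 several and 9160 none. Each gene was read from the brightest of its one-symbol probe sets (by mean over 12 arrays). No detection calls were used. The fit was limma 3.58.1 (R 4.3.3, lmFit, contrasts.fit, eBayes, two-sided) on log2(intensity + 1), with 1 coefficient for each of 4 lines. P-values were adjusted by Benjamini-Hochberg over 45037 probe sets. The code was tried on simulated data with independent noise on each array. That trial left out the shared deviation of same-letter arrays given below, so it cannot speak for error rates under such sharing. Figures used matplotlib. The lines, the 34 gene lists, the named genes and the settings were chosen with earlier results of these data known. Named were the 15 genes highest in each line among called genes whose arrays did not overlap, without predicted and Riken names, up to 6 called members with the largest difference per list, each list's defining members, and Dck. List and chromosome counts have no test. The reference gene table (GRCm38.p6) gave the chromosome of 18029 genes.

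The arrays of B117P and B140P with the same letter deviated together from their line means (r = 0.499 for A, 0.131 for B and 0.414 for C over probe sets), so the letters count as a pairing found in the data; no label says what a letter marks. Alternatives were the letter as a replicate block, the parental arrays alone, other normalization, pseudocounts, filters, priors, array weights, probe-set choices and thresholds, and leaving out arrays. Precision is limited by 3 arrays per line.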

Additional observations from a re-analysis of the deposited data

Results flagged for a closer look

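The genes in this part had a line difference that was not the same in the parental and in the resistant pair, by the interaction contrast of the limma fit (adjusted p under 0.05). Each value is the log2 difference of B140P minus B117P, less that of B140H minus B117H. No cause was tested.

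Opposite signs, each called in its own pair, stood behind the values of Hp (-4.70), Hpse (-5.95) and Vpreb1 (4.18). Dck (-4.92), Irf8 (-1.78), Cd68 (-0.99) and Sox4 (0.86) were called in the resistant pair and not in the parental one. Called in the parental pair and not in the resistant one were Glul (5.11), Depdc1a (4.52), Serpinb8 (3.87), Epop (3.69), Gfi1 (-2.38), Mmp8 (-2.19), Mcl1 (0.91) and Ifit1 (-0.91).

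Among genes called lower in the B140 line of both pairs, the difference was larger in size in the parental pair for Ms4a3 (-3.18), the granule protease genes Elane (-1.79) and Prtn3 (-0.78), Gstm1 (-1.49) and the lysozyme genes Lyz1 (-1.15) and Lyz2 (-1.34). The same held for Igsf6 (-3.996), Hpgd (-3.59), Ptgs2 (-2.30), Rai14 (-2.09), Hk3 (-1.58), Met (-1.56), Csf2ra (-1.50), Nrp1 (-1.05), Bcl2 (-1.02), Cebpd (-0.85) and Tlr2 (-0.58). Of the interferon-stimulated genes it held for Rtp4 (-1.87), Usp18 (-1.71), Trim30a (-0.79) and Xaf1 (-0.68). It was larger in the resistant pair for Itgax (2.92), Il18r1 (2.67), Mpo (1.82), Adgre1 (1.74), Cth (1.34), Ctsl (1.05) and Psat1 (0.72).

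Among genes called higher in the B140 line of both pairs, the difference was larger in the parental pair for Sgpp1 (4.69), Sfmbt2 (3.35), Tspan12 (2.05), Rag2 (1.60), Rag1 (1.42), Bckdhb (1.27), Zmat3 (1.18), Pou4f1 (1.04) and Hmga2 (0.88). It was larger in the resistant pair for Uty (-3.48), Cebpb (-1.55) and Cd79b (-1.34). Uty measured 13.5 to 14.5 in B117H and 301 to 537 in B140H.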

How the results depend on the processing

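The count of 4333 called genes stayed within 1.5 times under most of the 28 other settings. The exceptions were a test against a fold of 1.5 (1123, of which 40.2% higher, against 50.3%) and the fit without all arrays of letter C (2698). Leaving out 1 array gave 3585 to 4608. The same 2 settings gave 1290 and 3130 instead of 4911 genes in the resistant pair. The 1896 genes whose line difference changed came to 248 against a fold of 1.5, to 1006 at an adjusted p under 0.01 and to 904, 672 and 575 without all arrays of letter A, B and C.

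With the letter as a replicate block 5139 genes were called, among them all 4333. The paired fit added calls for Cd74, Lcn2, Mcpt8 (adjusted p = 0.0131) and S100a9 and ended none of the named genes' calls. Of the 130 named genes that were called, 106 kept call and direction under all 28 settings. Most of these genes were named for their large called differences, so this share does not stand for all 4333 called genes. Mdm2 turned to -0.30 (adjusted p = 0.163) without probe sets of the _s_at, _x_at and _a_at kind. That setting also ended the calls of App (-0.09), Ctsl (-0.36), Fcgr2b (-0.05) and Igll1 (0.20), because only dimmer probe sets of these genes were left. The medians of chromosomes 1, 4, 9, 12, 14 and 16 kept their sign over all genes and with the mean of each gene's probe sets. RMA compresses low values, and no measure of background came with them.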
